A study of Homo sapiens with 6 samples.

Results

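The Hsp90 chaperones and their endoplasmic reticulum (ER) cofactors were followed by RNA sequencing in 6 libraries of HEK293T cells, which derive from human embryonic kidney and take up plasmids readily. The 7 genes were HSP90B1 and its cofactors CNPY2, CNPY3 and CNPY4 in the ER, HSP90AA1 and HSP90AB1 in the cytosol, and TRAP1 in mitochondria. They were found in the deposited count table by their Ensembl identifiers, among 64299 genes, and all 7 passed the filter that left 16243 genes for testing. In 3 libraries the cells had received an expression plasmid labelled ERbeta, and in 3 the control EV_Ctrl, an empty plasmid. The labels do not define ERbeta, which from background knowledge of the study is a designed β-sheet protein sent to the ER lumen, and not the estrogen receptor of that name. All 6 shared the cell line, the lipid reagent FuGene 6 and a poly(A) library kit that keeps strand, and the labels give neither the time after transfection nor the share of cells that took up plasmid. The series description names HEK293 instead of HEK293T.

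Hsp90 proteins are dimeric ATPases that bind clients already partly folded, after Hsp70 chaperones have acted on them. HSP90B1 encodes GRP94, the Hsp90 of the ER lumen, whose clients include integrins and Toll-like receptors, and its gene is a classical target of the unfolded protein response. HSP90AA1 encodes the stress-inducible cytosolic Hsp90α and HSP90AB1 the constitutive Hsp90β, both under heat shock factor, while TRAP1 is the Hsp90 of the mitochondrial matrix. CNPY3 helps GRP94 fold Toll-like receptors, CNPY4 is a related protein that influences their display at the cell surface, and CNPY2 is an ER-resident protein of the same saposin-like family.

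The start regions of HSP90B1, HSP90AA1 and HSP90AB1 are shown because they hold matches to elements known from the ER and the cytosolic stress responses. Each window runs from 250 bases before to 50 bases after an annotated start, taken from RefSeq on GRCh38.p14 and read 5′ to 3′ on the gene's strand. In HSP90B1 (chr12:103930160-103930459, plus strand) the capitals mark matches to the ER stress response element, in the other windows (chr14:102086995-102087294, minus strand, and chr6:44247693-44247992, plus strand) matches to the heat shock element.
HSP90B1: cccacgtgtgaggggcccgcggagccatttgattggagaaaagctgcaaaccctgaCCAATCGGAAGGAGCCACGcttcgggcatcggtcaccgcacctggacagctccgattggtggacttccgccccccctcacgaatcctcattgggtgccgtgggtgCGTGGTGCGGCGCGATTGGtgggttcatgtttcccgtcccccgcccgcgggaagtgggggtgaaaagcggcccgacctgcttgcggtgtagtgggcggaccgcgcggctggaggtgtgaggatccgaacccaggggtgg
HSP90AA1: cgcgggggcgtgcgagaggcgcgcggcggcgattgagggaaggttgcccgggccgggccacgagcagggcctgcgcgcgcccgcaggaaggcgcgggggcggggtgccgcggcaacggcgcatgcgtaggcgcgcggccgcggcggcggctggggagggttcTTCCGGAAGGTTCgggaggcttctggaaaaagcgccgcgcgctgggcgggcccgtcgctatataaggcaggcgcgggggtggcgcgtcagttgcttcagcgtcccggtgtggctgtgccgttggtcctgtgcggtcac
HSP90AB1: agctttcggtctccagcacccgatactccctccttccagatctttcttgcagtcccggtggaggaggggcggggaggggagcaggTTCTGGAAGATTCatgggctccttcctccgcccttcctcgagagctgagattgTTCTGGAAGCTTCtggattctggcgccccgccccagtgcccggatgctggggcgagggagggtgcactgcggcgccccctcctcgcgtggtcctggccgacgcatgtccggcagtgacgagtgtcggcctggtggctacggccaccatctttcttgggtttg

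The ER stress response element was searched on both strands as CCAAT, then 9 bases of any kind, then CCACG. HSP90B1 held 2 matches, one from -194 to -176 relative to the start and one on the opposite strand from -89 to -71. Of 35116 human windows of this length, 27 (0.0769%) held the element, and the HSP90B1 window was the 1 window with at least 2 copies. The shorter form of the element, ATTGG, 1 base and CCACG, stood in 19 windows (0.0541%) and in none of those of the 7 genes. The heat shock element was searched on both strands as TTC, 2 bases, GAA, 2 bases, TTC. It stood in 172 windows (0.49%), among them 1 of HSP90AA1, from -88 to -76, and 1 of HSP90AB1, which held 2 matches from -165 to -153 and from -112 to -100. The CCAAT box alone occurred in 34.6% of windows. HSP90B1 held 5 of them, of which 2 are the ends of its ER stress response elements, while CNPY2, the second window of HSP90AA1 and each of the windows of CNPY3 held 1. The windows of TRAP1 and CNPY4, and the other windows of HSP90AB1, held no match to any of these motifs. The windows shown for HSP90AA1 and HSP90AB1 belong to starts inside the annotated gene, downstream of other annotated starts. A match describes the letters of a window and does not show that a factor binds there.

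**Figure D1:**
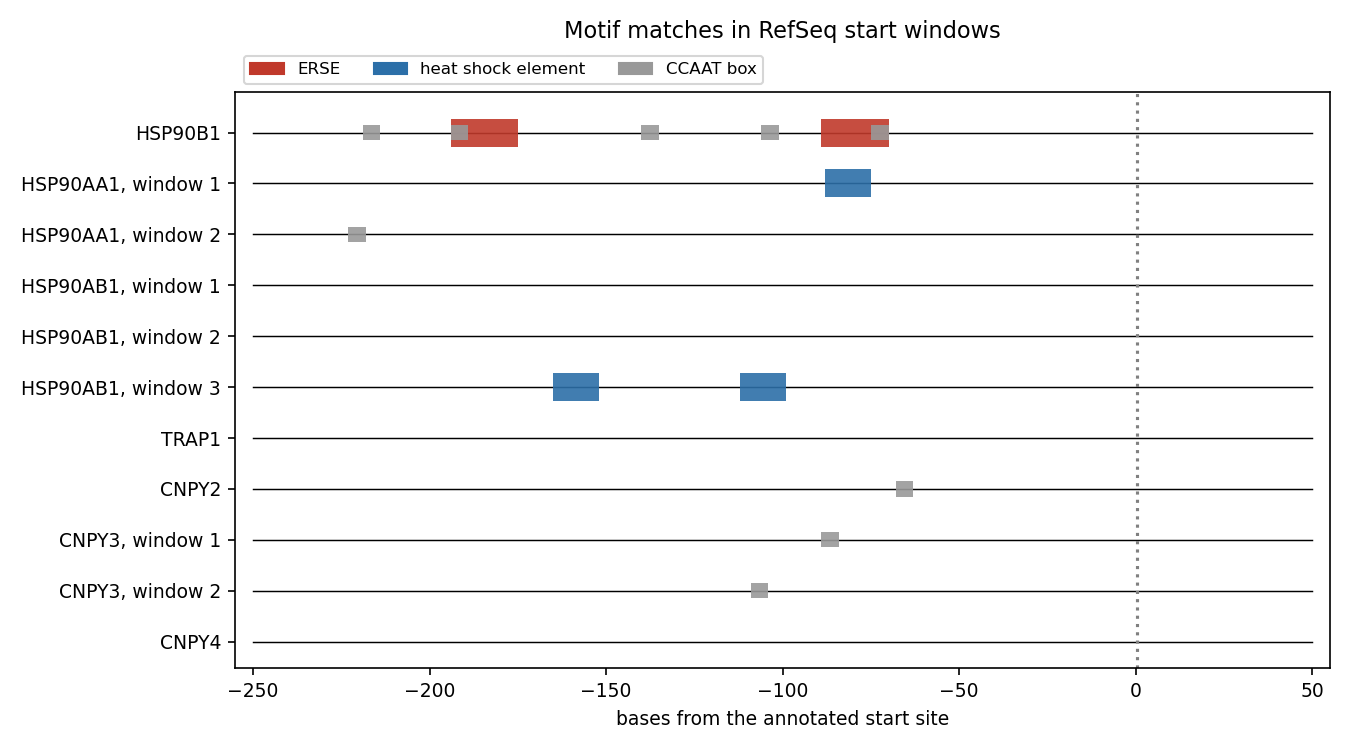
Position of motif matches in the start windows of the 7 genes, in bases from the annotated start (x axis, dotted line at the start); each black line is 1 RefSeq window, and HSP90AA1, HSP90AB1 and CNPY3 have several. Red boxes are ER stress response elements (ERSE), blue boxes heat shock elements and grey boxes CCAAT boxes; the 2 red boxes are both in HSP90B1.

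Library totals ran from 13149304 to 16531368 reads in ERbeta and from 6833442 to 27101644 reads in EV_Ctrl, with EV_Ctrl 2 the deepest of the 6. EV_Ctrl 2 stood apart from its group. On the first principal component the ERbeta libraries lay at -42.1 to -13.9, EV_Ctrl 2 at -13.9, and EV_Ctrl 1 and 3 at 44.7 and 41.5. A GC trend, the fitted log2 level of genes with 40% GC minus that of genes with 60%, was 0.772, 0.672 and 1.23 in ERbeta 1 to 3, against 0.137, 0.752 and 0.211 in EV_Ctrl 1 to 3. Values without EV_Ctrl 2 and after correction for the GC trend are therefore given beside the fold changes of the 7 genes, and the part of either in them was not tested. EV_Ctrl 2 was singled out from these same data. A test passed without it describes the dependence on that library and is no separate support. Of the markers that HEK293 lines keep, VIM was at 827 to 957 counts per 1e+06 counts of a library and PAX2, the lowest, at 3.65 to 12.1. CD3E, KRT14 and HBB, markers of T cells, keratinocytes and red cells, had 0 reads in every library, and CD14, a monocyte marker, was the highest of 8 such genes, at 0.913 to 2.22 on that scale.

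HSP90B1 was, as counted, the only gene of the 7 whose ERbeta libraries were all higher than every EV_Ctrl library. It was at 1476, 1534 and 1555 CPM (counts per 1e+06 counts, scaled by edgeR's TMM factors) in ERbeta 1, 2 and 3, against 714, 1208 and 640 CPM in EV_Ctrl 1, 2 and 3. The ERbeta libraries lay close together, at 1521 ± 40.8 CPM, while EV_Ctrl, at 854 ± 309 CPM (SD, n = 3 each), spread widely, with EV_Ctrl 2 far above the other EV_Ctrl libraries. The fold change was 1.78 with a 95% interval of 1.24 to 2.56, or 0.83 on the log2 scale (standard error 0.23). It did not pass the threshold of 0.05 in edgeR's quasi-likelihood test (Benjamini-Hochberg adjusted p = 0.397, rank 223 of 16243 genes by p). That test called 0% of the genes. The difference is one of all cells in a culture, so a change in every cell and a larger one in the transfected cells cannot be told apart.

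The size of the HSP90B1 difference depended on which control library stood for the empty vector. Without EV_Ctrl 2 the log2 fold change was 1.18 and passed edgeR's test (adjusted p = 7.62e-05), in a fit that called 13.5% of all genes higher. Without EV_Ctrl 1 it was 0.72 (edgeR adjusted p = 0.791), and without EV_Ctrl 3 it was 0.66 (edgeR adjusted p = 0.747). Against EV_Ctrl 2 alone the log2 fold change was 0.34. After GC correction it was 0.64 (edgeR adjusted p = 0.344), with 1417, 1513 and 1303 CPM in ERbeta and 829, 1160 and 728 CPM in EV_Ctrl. On that scale too the groups did not overlap, and EV_Ctrl 2 was the EV_Ctrl library nearest to ERbeta. With GC correction and without EV_Ctrl 2 the log2 fold change was 0.87 (edgeR adjusted p = 0.00099). That fit was added after seeing the data and called 1480 of 16144 genes higher. DESeq2 gave 0.83 with an adjusted p of 0.0991 and called 0.438% of the genes it tested. The authors' deposited table lists a log2 fold change of 0.64 for HSP90B1 with an adjusted p of 0.0147. Of the 11150 genes with an adjusted p in that table, 421 were under 0.05, 373 of them higher in ERbeta. The gene lies at chr12:103930107-103953645 on the plus strand (ENSG00000166598, GENCODE 29 on GRCh38), and its longest transcript has 41.2% GC.

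**Figure D2:**
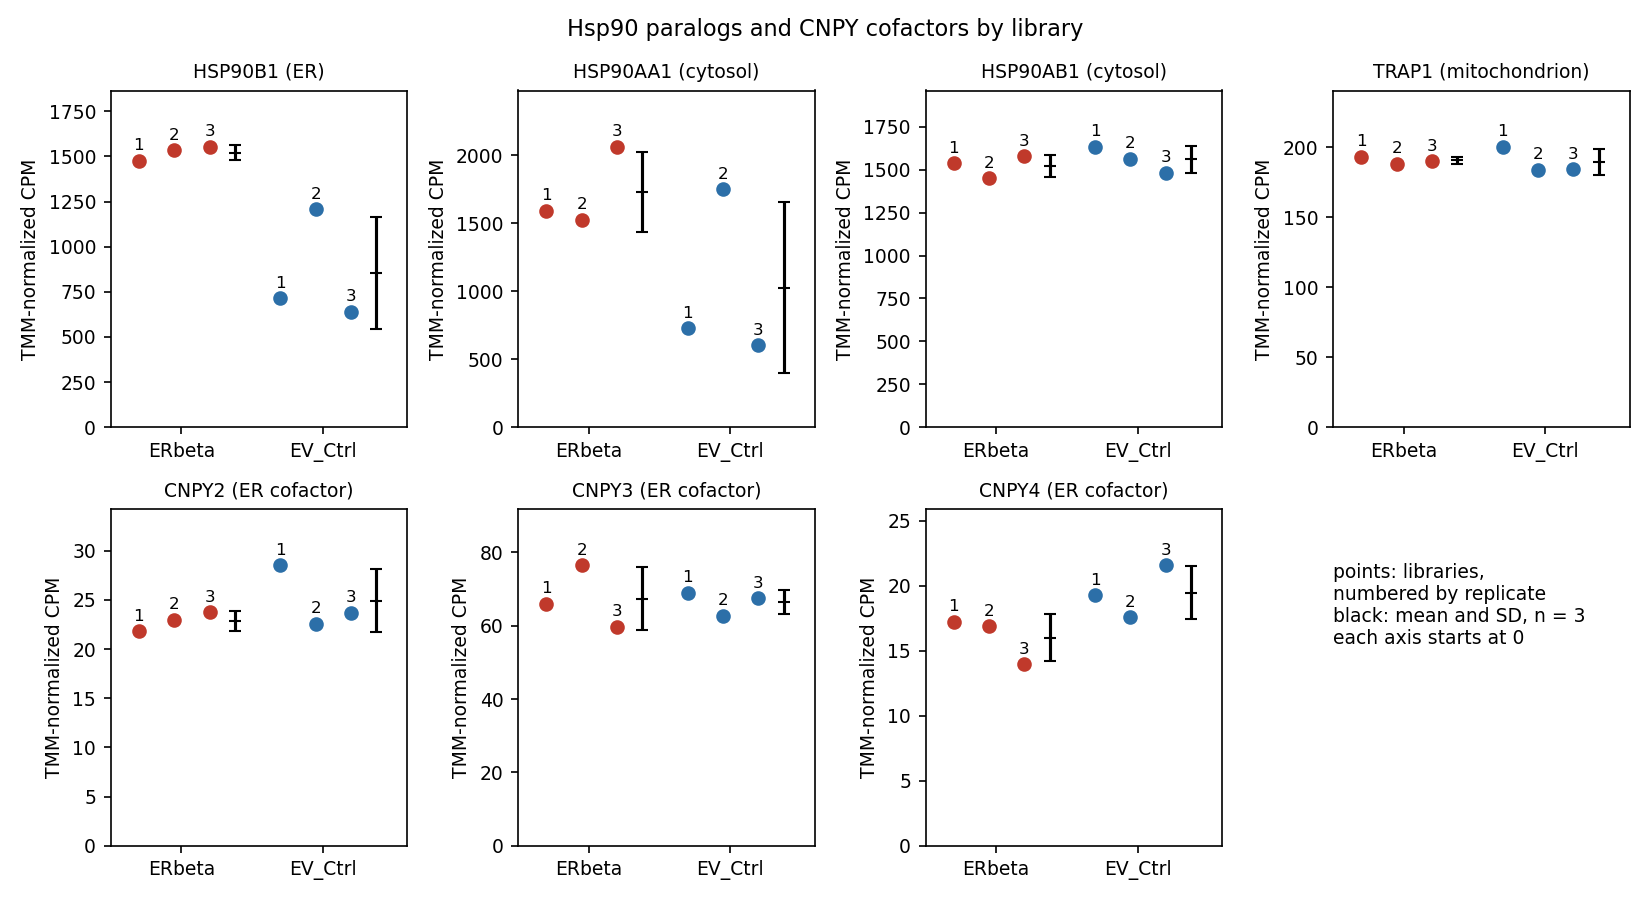
TMM-normalised CPM (y axis, from 0 in each panel) of the 7 genes in the 3 ERbeta (red) and 3 EV_Ctrl (blue) libraries, numbered by replicate, with the mean and SD of each group in black. HSP90B1 lies at 1476 to 1555 CPM in ERbeta and at 640 to 1208 CPM in EV_Ctrl, HSP90AA1 shows the same high EV_Ctrl 2, and HSP90AB1 and TRAP1 stay level.

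The ER cofactors of HSP90B1 had log2 fold changes between -0.28 and 0.023, and none passed the test. CNPY3 (ENSG00000137161, chr6:42929192-42939287, plus strand) was at 66.0, 76.5 and 59.8 CPM in ERbeta and at 69.0, 62.7 and 67.6 CPM in EV_Ctrl. The groups overlapped, with a log2 fold change of 0.023 and a 95% interval of -0.26 to 0.31 (edgeR adjusted p = 0.945), and the sign turned with library size as the only scaling (-0.073). After GC correction CNPY3 averaged 72.5 ± 4.12 CPM in the ERbeta libraries, against 61.7 ± 2.64 CPM in the EV_Ctrl libraries (SD, n = 3 each), without overlap, a log2 fold change of 0.23 (edgeR adjusted p = 0.441). CNPY2 (ENSG00000257727, chr12:56309842-56316336, minus strand) was at 21.8, 23.0 and 23.7 CPM in ERbeta, against 28.5, 22.6 and 23.7 CPM in EV_Ctrl. EV_Ctrl 1 was the highest of the 6 and the groups overlapped (log2 fold change -0.12, 95% interval -0.42 to 0.18, edgeR adjusted p = 0.682). The log2 fold change of CNPY2 was 0.075 after GC correction, -0.017 on leaving out EV_Ctrl 1 and -0.18 on leaving out EV_Ctrl 2.

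CNPY4 (ENSG00000166997, chr7:100119613-100125511, plus strand) was at 17.2, 16.9 and 14.0 CPM in ERbeta, against 19.3, 17.6 and 21.6 CPM in EV_Ctrl. All ERbeta libraries lay below all EV_Ctrl libraries, by a log2 fold change of -0.28 with a 95% interval of -0.60 to 0.049 (edgeR adjusted p = 0.424), and after GC correction they overlapped (log2 fold change -0.14). It was the least covered gene, with 139 reads in EV_Ctrl 1, for which counting error alone gives a Poisson 95% interval of 117 to 164 reads. So 1 of the 7 genes was higher and 1 lower without overlap, against 10.2% and 8.48% of all tested genes. After GC correction HSP90B1, CNPY3 and TRAP1 lay higher without overlap, against 12.2% of all genes. At an unadjusted p under 0.05, edgeR counted 1 of the 7, HSP90B1, and 12.4% of all genes. The 3 cofactors summed to 106 ± 9.53 CPM in ERbeta, against 111 ± 7.17 CPM in EV_Ctrl (SD, n = 3 each, two-sided exact permutation p = 0.6).

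Of the cytosolic pair, HSP90AA1 had the larger difference and by far the larger spread. HSP90AA1 (ENSG00000080824, chr14:102080738-102139699, minus strand) was at 1592, 1526 and 2062 CPM in ERbeta and at 726, 1749 and 600 CPM in EV_Ctrl. EV_Ctrl 2 lay above ERbeta 1 and 2, so the groups overlapped, and EV_Ctrl 1 and 3 were the lowest. On the log2 scale the fold change was 0.75 (standard error 0.38), with a 95% interval of -0.13 to 1.63 (edgeR adjusted p = 0.421). Without EV_Ctrl 2 it was 1.39 and passed edgeR's test (adjusted p = 0.00015), while against EV_Ctrl 2 alone it was -0.015. Without EV_Ctrl 1 it was 0.56 (edgeR adjusted p = 0.803), and without EV_Ctrl 3 it was 0.48 (edgeR adjusted p = 0.759). GC correction left it at 0.74 with all libraries and at 1.39 without EV_Ctrl 2, where it also passed (edgeR adjusted p = 9.71e-05). The latter fit was added after seeing the data and called 1480 of 16144 genes higher. Without EV_Ctrl 2, HSP90AA1 and HSP90B1 were the 2 of 7 genes called, both higher in ERbeta, against 13.5% of all genes called higher in that fit. The authors' deposited table lists HSP90AA1 at 0.44 with an adjusted p of 0.116.

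HSP90AB1 (ENSG00000096384, chr6:44246166-44253888, plus strand) was at 1537, 1450 and 1578 CPM in ERbeta and at 1635, 1564 and 1482 CPM in EV_Ctrl. The libraries of the groups lay among each other, EV_Ctrl 2 included, with means of 1521 ± 65.3 CPM in ERbeta, against 1560 ± 76.6 CPM in EV_Ctrl (SD, n = 3 each). The log2 fold change was -0.036 with a 95% interval of -0.25 to 0.17 (edgeR adjusted p = 0.869), and its sign turned after GC correction, to 0.048. TRAP1 (ENSG00000126602, chr16:3651639-3717597, minus strand) was at 193, 189 and 190 CPM in ERbeta and at 201, 184 and 184 CPM in EV_Ctrl. Its coefficient of variation was 1.31% in ERbeta and 4.99% in EV_Ctrl, and its log2 fold change was 0.0080 with a 95% interval of -0.20 to 0.22 (edgeR adjusted p = 0.975). That sign turned to -0.089 with library size as the only scaling. After GC correction TRAP1 averaged 204 ± 14 CPM in ERbeta, against 178 ± 12.5 CPM in EV_Ctrl (SD, n = 3 each). The log2 fold change was then 0.19 (edgeR adjusted p = 0.501). The groups did not overlap but nearly touched, with ERbeta 2 at 192 CPM and EV_Ctrl 2 at 191 CPM.

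**Figure D3:**
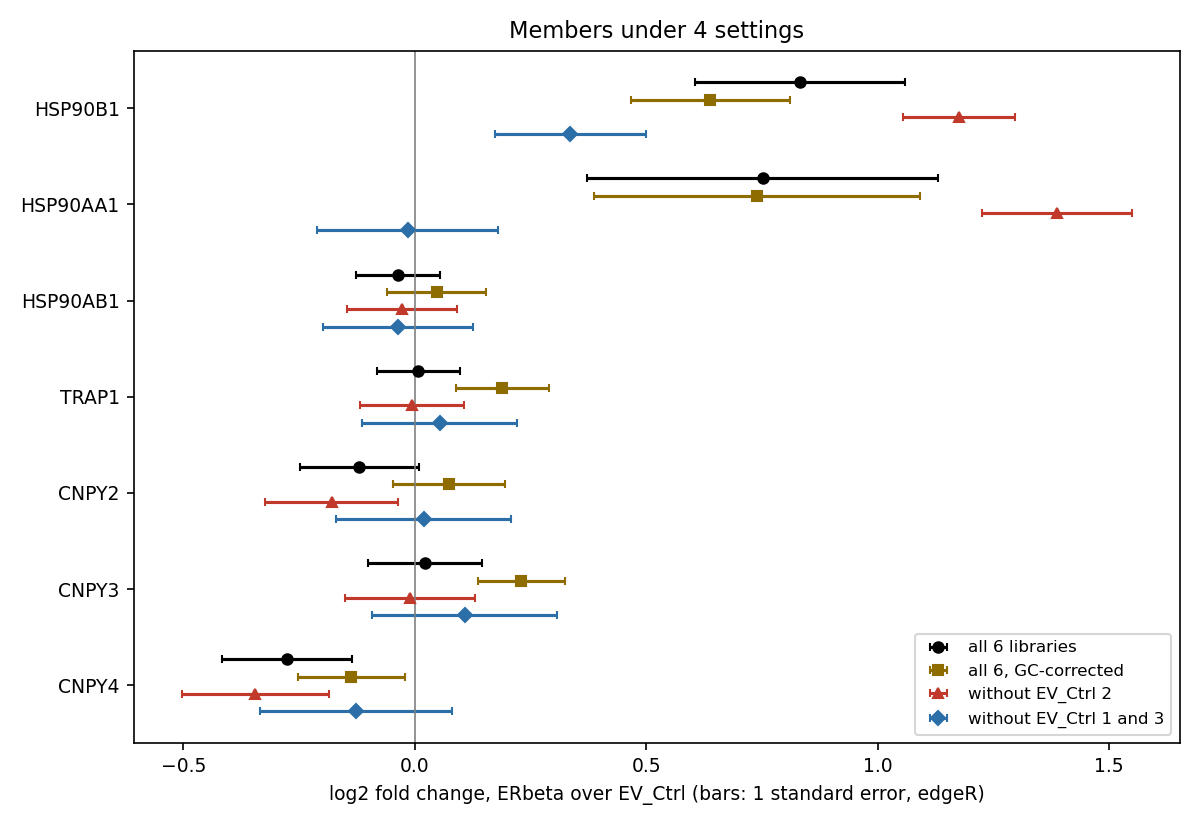
Log2 fold change of ERbeta over EV_Ctrl (x axis, bars 1 standard error from edgeR) for each of the 7 genes with all 6 libraries, after GC correction, without EV_Ctrl 2, and without EV_Ctrl 1 and 3. HSP90AA1 runs from -0.015 to 1.39 and HSP90B1 from 0.34 to 1.18 with the control library used, while HSP90AB1 stays between -0.037 and 0.048.

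HSP90B1 and HSP90AA1 tracked each other over the 6 libraries (Pearson r = 0.955 of log2 CPM, a description over libraries that also differ in depth and GC trend, with EV_Ctrl 1 and 3 at the low end). HSP90B1 against HSP90AB1 gave -0.18. Of 7271 genes whose log2 CPM averaged 5 or more, the 5 with the highest r to HSP90B1 were TAF1D (0.999), RIOK1 and NFE2L2 (0.998 each), CSTF3 (0.997) and PNRC2 (0.996). For HSP90AA1 they were EIF4E, ANLN and BZW1 (at least 0.999), for HSP90AB1 ORC1 (0.981), DDX27 (0.962) and NECAP1 (0.960), and for TRAP1 PRMT5 (0.976), YIPF2 (0.970) and NTMT1 (0.967). No chaperone was among these 14 genes. HSP90B1 and HSP90AA1 were lowest in EV_Ctrl 1 and 3, the 2 libraries with the smallest GC trend. At the GC content of HSP90AA1, 45.2%, the fitted GC curves of the groups differed by -0.000245 (log2, ERbeta minus EV_Ctrl), against 0.226 at that of HSP90B1.

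**Figure D4:**
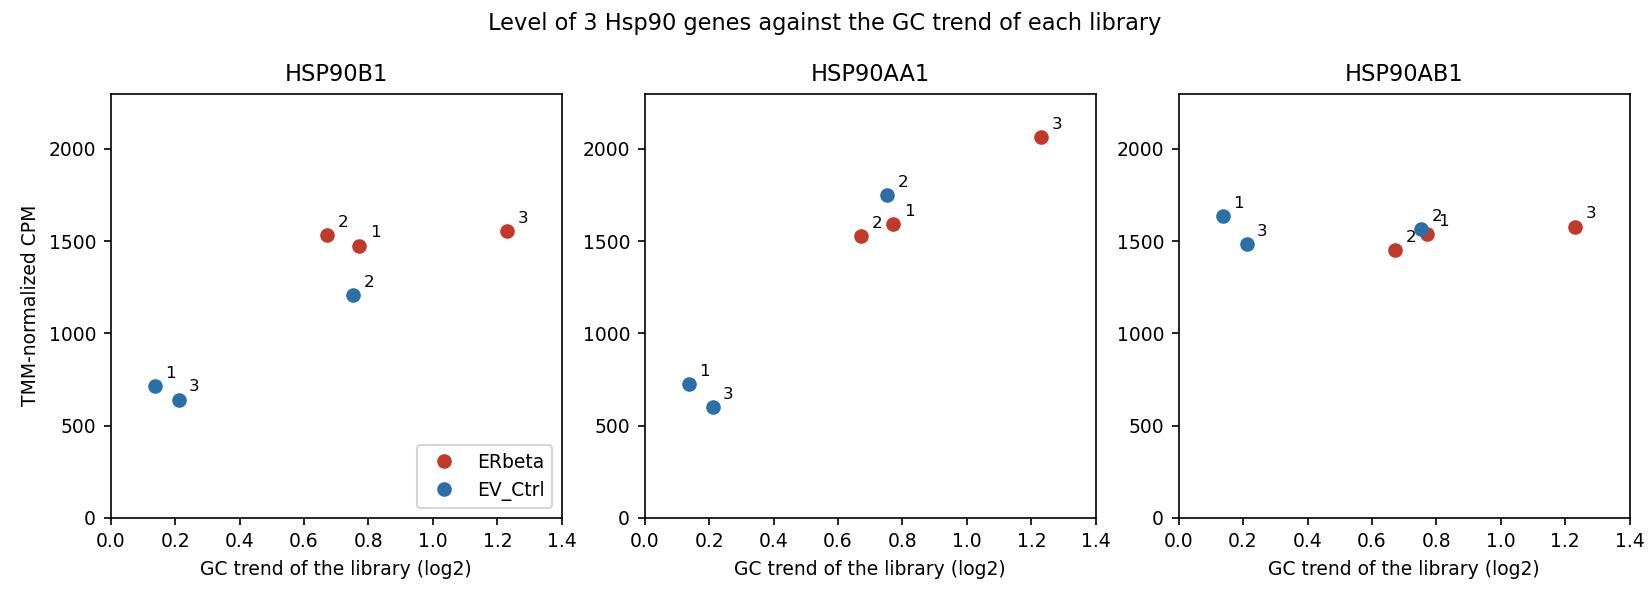
Level of HSP90B1, HSP90AA1 and HSP90AB1 (y axis, TMM-normalised CPM) against the GC trend of each library (x axis, fitted log2 level at 40% GC minus that at 60%), ERbeta in red and EV_Ctrl in blue, numbered by replicate. EV_Ctrl 2, at a trend of 0.752, lies beside the ERbeta libraries for HSP90AA1 and between them and the other EV_Ctrl libraries for HSP90B1; HSP90AB1 is level.

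Ratios of reads within a library do not depend on the scaling between libraries. For each HSP90AB1 read there were 0.961, 1.06 and 0.985 HSP90B1 reads in ERbeta 1 to 3, against 0.437, 0.772 and 0.432 in EV_Ctrl 1 to 3. Each ERbeta library was higher than every EV_Ctrl library, by a mean log2 difference of 0.93 (two-sided exact permutation p = 0.1, adjusted p = 0.18 over 9 ratios; 0.1 is the smallest p that 3 against 3 can give). Without EV_Ctrl 2 that difference was 1.20. HSP90B1 over TRAP1, CNPY2, CNPY3 and CNPY4 behaved alike in this respect, with log2 differences of 0.88, 1.01, 0.88 and 1.17, no overlap, and an exact permutation p of 0.1 each. These 5 ratios share their numerator, so they are not independent. After GC correction the log2 difference was 0.62 for HSP90B1 over HSP90AB1 and 0.47 for HSP90B1 over TRAP1.

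The ratio of HSP90AA1 to HSP90AB1 was 1.04, 1.05 and 1.31 in ERbeta and 0.444, 1.12 and 0.405 in EV_Ctrl, with overlap through EV_Ctrl 2 (log2 difference 0.94, or 1.41 without EV_Ctrl 2, exact permutation p = 0.3). The reads of HSP90B1 to those of HSP90AA1 stood at 0.927, 1.01 and 0.754 in ERbeta and at 0.984, 0.691 and 1.07 in EV_Ctrl, a log2 difference of -0.015 (exact permutation p = 1). HSP90AB1 over TRAP1 ran from 7.69 to 8.30 in ERbeta and from 8.04 to 8.50 in EV_Ctrl, the narrowest log2 range of the 9 ratios (log2 difference -0.045, exact permutation p = 0.4).

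Per kilobase of exon, HSP90AB1 was the most abundant of the 7 transcripts in every library, at 487 to 530 CPM per kb in ERbeta and 497 to 549 in EV_Ctrl. In ERbeta, HSP90B1 (314 to 331) and HSP90AA1 (291 to 393) followed with overlapping ranges. In EV_Ctrl 1 and 3, HSP90B1 (152 and 136) stood above HSP90AA1 (138 and 114), and in EV_Ctrl 2 below it (257 against 333). TRAP1 (35.2 to 38.4 CPM per kb over all libraries) and CNPY3 (34.9 to 44.7) overlapped, and CNPY2 (7.38 to 9.66) and CNPY4 (5.64 to 8.73) overlapped at the low end. Both overlaps depend on the length used, here that of the merged exons. Merged exons and longest transcript have 5227 and 2309 bases for TRAP1, and 1712 and 1704 for CNPY3. For CNPY2 they have 2956 and 1214 bases, and for CNPY4 2475 and 1502.

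Of the transcripts of the 4 Hsp90 genes, counted per kilobase, the ER form made up 26.9%, 28.7% and 25.7% in ERbeta, against 17.3%, 22.4% and 17.4% in EV_Ctrl. The ER share was higher in every ERbeta library, at 27.1 ± 1.5% in ERbeta and 19.0 ± 2.88% in EV_Ctrl (SD, n = 3 each, two-sided exact permutation p = 0.1, adjusted p = 0.167 over 5 shares). The difference was 8.03 percentage points, and 9.69 without EV_Ctrl 2. The cytosolic share was lower without overlap, 69.9 ± 1.67% in ERbeta and 77.0 ± 2.09% in EV_Ctrl (SD, n = 3 each, exact permutation p = 0.1), and the shares of 1 library sum to a whole. The summed level of the cytosolic pair was not lower in ERbeta, at 3248 ± 348 CPM, against 2585 ± 646 CPM in EV_Ctrl (SD, n = 3 each, exact permutation p = 0.3). Alone, HSP90AB1 made up 42.6 ± 1.51% in ERbeta and 57.2 ± 10.1% in EV_Ctrl (SD, n = 3 each, exact permutation p = 0.1), while its level had a log2 fold change of -0.036. HSP90AA1 made up 27.3 ± 2.75% in ERbeta and 19.8 ± 7.98% in EV_Ctrl (SD, n = 3 each, exact permutation p = 0.3). The mitochondrial share was 3.05 ± 0.198% in ERbeta and 3.98 ± 0.798% in EV_Ctrl (SD, n = 3 each, exact permutation p = 0.3). Per kilobase of the longest transcript it was 5.03 ± 0.337% in ERbeta and 6.86 ± 1.52% in EV_Ctrl (SD, n = 3 each). After GC correction the ER share was 25.5%, 27.6% and 22.5% in ERbeta, against 20.4%, 21.3% and 20.1% in EV_Ctrl. The groups still did not overlap, at a difference of 4.62 percentage points (exact permutation p = 0.1). The cytosolic share was then 71.5 ± 2.4% in ERbeta and 75.7 ± 0.0837% in EV_Ctrl (SD, n = 3 each, exact permutation p = 0.1). The 4 genes together took 0.470%, 0.456% and 0.510% of all reads in ERbeta, and 0.346%, 0.460% and 0.309% in EV_Ctrl, where EV_Ctrl 2 again lay among the ERbeta libraries (exact permutation p = 0.2).

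**Figure D5:**
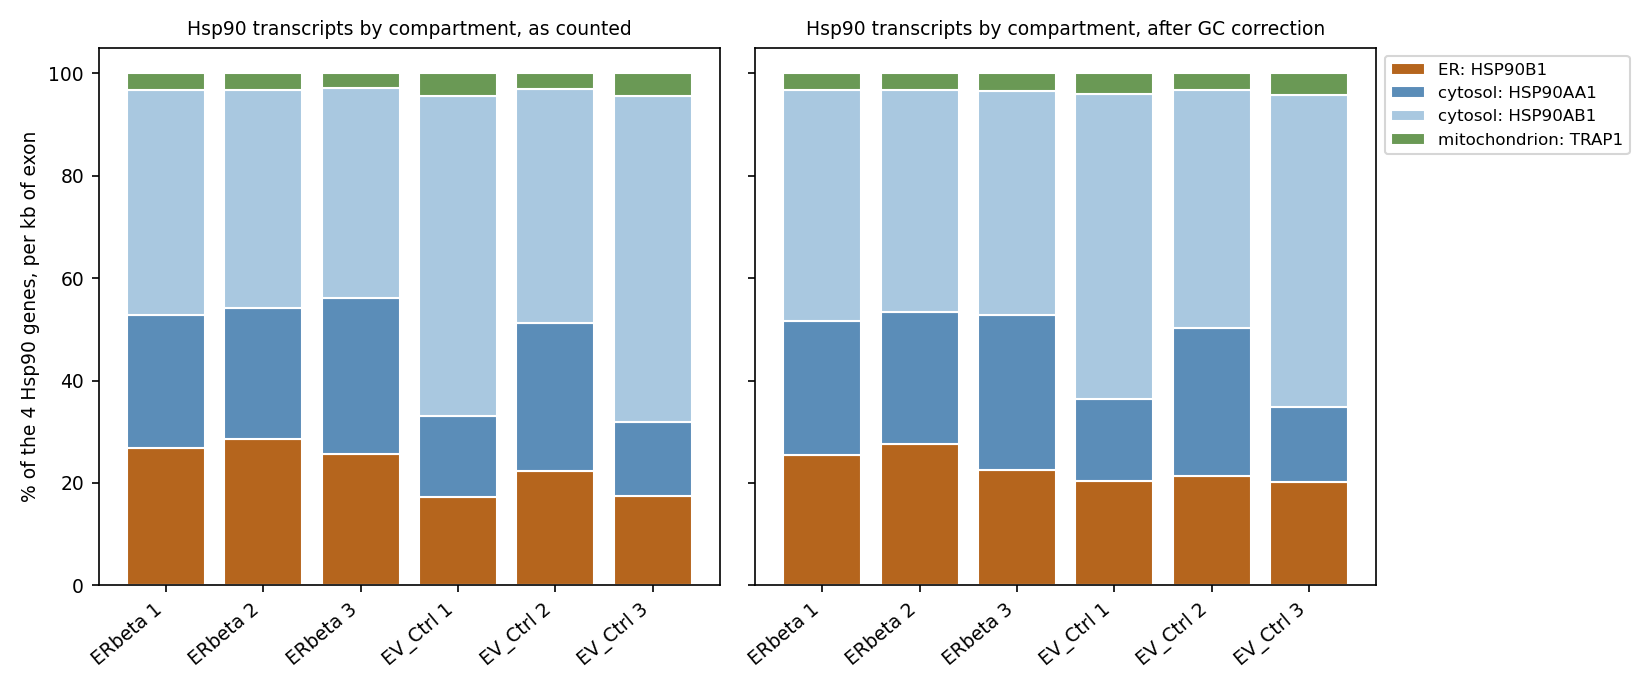
Share of each Hsp90 gene in the summed level of the 4 genes per kilobase of exon (y axis, %), for each library, as counted (left) and after GC correction (right). The ER share lies at 25.7 to 28.7% in ERbeta and 17.3 to 22.4% in EV_Ctrl as counted, and at 22.5 to 27.6% in ERbeta and 20.1 to 21.3% in EV_Ctrl after correction.

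HSP90B1 works among the other chaperones of the ER lumen, most of which lay higher in ERbeta. Of 20 such genes, all tested, 19 had a positive log2 fold change, 13 lay higher without overlap and 0 lower (10.2% and 8.48% of all genes), with a median of 0.313 against -0.0115 over all tested genes. None passed edgeR's test. DESeq2 called 3 (0.438% of all genes), and edgeR called 6 higher without EV_Ctrl 2 (13.5% of all genes). After GC correction all 20 were positive, with a median of 0.343 against 0.0469 over all genes. HSPA5, the Hsp70 BiP that hands clients to GRP94, had 870, 877 and 888 CPM in ERbeta and 530, 536 and 501 CPM in EV_Ctrl. EV_Ctrl 2 lay beside EV_Ctrl 1 here, where for HSP90B1 it lay above both other EV_Ctrl libraries. The log2 fold change of HSPA5 was 0.78 without EV_Ctrl 2 and 0.72 against EV_Ctrl 2 alone (all libraries 0.75, 0.78 after GC correction, edgeR adjusted p = 0.13). The HSP90B1 reads per HSPA5 read were 1.70, 1.75 and 1.75 in ERbeta and 1.35, 2.25 and 1.28 in EV_Ctrl, a ratio chosen after its values were seen and not tested. DNAJB9, a BiP co-chaperone, averaged 33.9 ± 3.57 CPM in ERbeta, against 15.2 ± 4.98 CPM in EV_Ctrl (SD, n = 3 each; log2 fold change 1.13, 0.87 after GC correction, edgeR adjusted p = 0.333). DNAJB11, another, had 124 ± 5.52 CPM in ERbeta, against 88.9 ± 6.22 CPM in EV_Ctrl (SD, n = 3 each; log2 fold change 0.48, 0.031 after GC correction, edgeR adjusted p = 0.384).

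Of 12 sensors and transcription factors upstream of ER chaperone genes, all tested, 7 had a positive log2 fold change, 3 lay higher and 1 lower without overlap (10.2% and 8.48% of all genes), and the median was 0.0882. None passed edgeR's test. DESeq2 called 2 (0.438% of all genes), and edgeR called 3 higher without EV_Ctrl 2 (13.5% of all genes). XBP1, which binds ER stress response elements, had 129, 138 and 131 CPM in ERbeta and 91.3, 84.3 and 89.7 CPM in EV_Ctrl, with EV_Ctrl 2 the lowest (log2 fold change 0.59, 0.38 after GC correction, edgeR adjusted p = 0.256). EIF2AK3, the ER sensor kinase PERK, had 63.5 ± 2.97 CPM in ERbeta, against 43.3 ± 2.84 CPM in EV_Ctrl (SD, n = 3 each; log2 fold change 0.55, 0.51 after GC correction, edgeR adjusted p = 0.326). NFYB, a subunit of the factor that binds CCAAT boxes, had 52.6 ± 4.3 CPM in ERbeta, against 37.7 ± 9.95 CPM in EV_Ctrl (SD, n = 3 each; edgeR adjusted p = 0.397), and its log2 fold change of 0.47 was -0.050 after GC correction.

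Of 24 co-chaperones of the cytosolic Hsp90 proteins, all tested, 15 had a positive log2 fold change and the median was 0.0492, which GC correction brought to 20 and 0.155. Over all tested genes GC correction moved the median from -0.0115 to 0.0469. As counted, 4 of the co-chaperones lay higher and 1 lower without overlap (10.2% and 8.48% of all genes). None passed edgeR's test, and 5 did so without EV_Ctrl 2, all higher (13.5% of all genes). Those with the smallest p were CDC37L1, CHORDC1 and FNIP1. CHORDC1, a co-chaperone induced by heat shock, had 99.0, 87.7 and 117 CPM in ERbeta and 39.3, 83.4 and 42.3 CPM in EV_Ctrl (log2 fold change 0.87, 0.31 after GC correction, edgeR adjusted p = 0.397), with the high EV_Ctrl 2 also seen in HSP90AA1. CDC37L1, a relative of the kinase co-chaperone CDC37, had 22.2 ± 1.72 CPM in ERbeta, against 12.9 ± 4.58 CPM in EV_Ctrl (SD, n = 3 each; log2 fold change 0.75, 0.33 after GC correction). FNIP1, a folliculin partner that binds Hsp90, had 42.2 ± 10.5 CPM in ERbeta, against 28.1 ± 3.83 CPM in EV_Ctrl (SD, n = 3 each; log2 fold change 0.57, 0.19 after GC correction). Of 14 Hsp70 and Hsp110 partners, all tested, 9 had a positive log2 fold change with a median of 0.0854, against 13 and 0.2 after GC correction; without EV_Ctrl 1, 14 were positive. DNAJB4 alone lay higher without overlap and 0 lay lower (10.2% and 8.48% of all genes). None passed edgeR's test, and 6 did so without EV_Ctrl 2 (13.5% of all genes). DNAJB4, an Hsp40 protein, had 22.9 ± 1.8 CPM in ERbeta, against 12.4 ± 4.82 CPM in EV_Ctrl (SD, n = 3 each; log2 fold change 0.85, 0.21 after GC correction). HSF2, a heat shock factor, had 81.6 ± 8.12 CPM in ERbeta and 59.3 ± 15.1 CPM in EV_Ctrl, and DNAJA1, also an Hsp40 protein, had 401 ± 38.5 CPM in ERbeta, against 283 ± 86.7 CPM in EV_Ctrl (SD, n = 3 each), both with overlap. Their log2 fold changes were 0.46 for HSF2 and 0.50 for DNAJA1, and 0.20 and 0.33 after GC correction.

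Among 13 tested of 14 mitochondrial chaperones and proteases, 10 had a positive log2 fold change, with a median of 0.108 against -0.0115 over all tested genes. After GC correction 9 of them were positive, with a median of 0.155 against 0.0469 over all genes. Without overlap 2 lay higher (10.2% of all genes), 0 passed edgeR's test, and 2 did so without EV_Ctrl 2 (13.5% of all genes), so both shares were near those of all genes. HSPA9, the mitochondrial Hsp70, had 447 ± 41.3 CPM in ERbeta, against 374 ± 39.8 CPM in EV_Ctrl (SD, n = 3 each; log2 fold change 0.26, 0.18 after GC correction, edgeR adjusted p = 0.401). YME1L1, a protease of the inner membrane that faces the intermembrane space, had 274 ± 32.4 CPM in ERbeta and 205 ± 46.8 CPM in EV_Ctrl, and HSPD1, the chaperonin Hsp60, had 758 ± 97.8 CPM in ERbeta, against 583 ± 190 CPM in EV_Ctrl (SD, n = 3 each), both with overlap. Their log2 fold changes were 0.42 for YME1L1 and 0.38 for HSPD1, and 0.17 and 0.33 after GC correction. Of 24 client proteins reported for GRP94, 15 were tested, 8 had a positive log2 fold change, with a median of 0.0494. After GC correction 9 of them were positive, with a median of 0.00398 against 0.0469 over all genes. Without overlap 0 lay higher and 1 lower (10.2% and 8.48% of all genes), 0 passed edgeR's test, and 4 did so without EV_Ctrl 2 (13.5% of all genes). The clients with the smallest p were the integrin subunits ITGAV, ITGA1 and ITGA4. ITGA1 had 53.5, 58.8 and 73.2 CPM in ERbeta and 20.1, 56.2 and 23.1 CPM in EV_Ctrl, where EV_Ctrl 2 lay among the ERbeta libraries (log2 fold change 0.88, 0.56 after GC correction, edgeR adjusted p = 0.397). ITGAV had 176 ± 41.6 CPM in ERbeta and 122 ± 26.9 CPM in EV_Ctrl, and ITGA4 24.7 ± 4.32 CPM in ERbeta, against 17.1 ± 6.36 CPM in EV_Ctrl (SD, n = 3 each), both with overlap. Their log2 fold changes were 0.53 for ITGAV and 0.50 for ITGA4, and 0.11 and 0.43 after GC correction.

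Close copies of the Hsp90 genes could share their reads. In 50-base windows of the longest transcript, 7.01% of those of HSP90B1, 17.5% of HSP90AA1, 18.8% of HSP90AB1 and none of TRAP1, CNPY3 or CNPY4 also stood in a transcript of another gene. The annotated pseudogenes held few reads, 0.0544% to 0.108% of those of HSP90B1 in a library, 0.163% to 0.252% for HSP90AA1 and 0.253% to 0.313% for HSP90AB1, and with them added the ER share was 27.0 ± 1.5% in ERbeta and 19.0 ± 2.88% in EV_Ctrl (SD, n = 3 each). How reads that fit several genes were counted is not given, so few pseudogene reads do not show that few were shared. CNPY2 is uncertain too, since 67.6% of its windows also occur in other transcripts, mostly in a second annotated gene that runs through the locus. It also overlaps PAN2 on the same strand, whose reads reached 595% of those of CNPY2 in a library. HSP90B1, HSP90AA1, TRAP1, CNPY2 and CNPY4 overlap annotated genes on the opposite strand, and the strand setting of the counting is not given. The most read of these reached 3.75% of the reads of HSP90B1 (UQCC6) and 3.29% for HSP90AA1 (WDR20). For TRAP1 it was 24.3% (DNASE1), for CNPY2 6.8% (CNPY2-AS1) and for CNPY4 452% (TAF6).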

How the data were processed

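RNA was sequenced from 3 ERbeta and 3 EV_Ctrl libraries (TruSeq stranded mRNA kit, per the labels' protocols). The submitters' processing notes name the tools TopHat2, featureCounts and DESeq2, and the build hg38. Versions, annotation and the strand option used in counting were not given in the sources used here. The deposited table holds the authors' raw read counts per gene, with symbols matched here for 56591 of 64299 identifiers, 0 reads outside named genes and 0 columns of other samples. A second deposited table holds the authors' comparison: per the file headers, a mean signal, the log2 fold change, scores (standard error and test statistic) and p-values, raw and adjusted. It was used only where named.

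The counts were filtered with filterByExpr (minimum count 10, minimum total 15), scaled by edgeR's TMM (trimmed mean of M values) and tested by glmQLFit and glmQLFTest of edgeR 4.0.16 in R 4.3.3, with p-values adjusted by Benjamini-Hochberg over 16243 genes at a threshold of 0.05. The biological coefficient of variation was 17.5%. Standard errors and 95% intervals come from the quasi-likelihood F statistic. Levels are TMM-normalised CPM. The labels do not say that replicates were separate cultures, so the spread that p-values measure may be technical, and the Poisson interval covers counting error only. Ratios and shares were compared with two-sided exact permutation tests. GC correction used a loess curve (span 0.5) per library of log2 CPM against GC content, taken from the longest transcript in GENCODE 29, for 16091 genes, as an offset. In the fit without EV_Ctrl 1 and 3, the lone library is taken to be as variable as the ERbeta group.

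The genes and lists were chosen with earlier results of these data known. Named genes were the 7 genes, up to 3 genes of each list with the smallest p, and those most correlated with a Hsp90 gene. Alternatives were DESeq2 1.42.0 size factors and test, limma-voom (limma 3.58.1), library size only, other filters, a replicate block, GC correction, an adjusted p under 0.01, other lengths or pseudogene reads for the shares, and leaving out libraries. The correction combined with leaving out EV_Ctrl 2 was added after seeing the data. The scripts were tested on simulated data. Protein sequences were not used here.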

Additional observations from a re-analysis of the deposited data

How the results depend on the processing

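EdgeR's test called 0 of 16243 genes with all libraries (2018 at an unadjusted p under 0.05), 51 of 30486 with no filter on low counts, 22 of 16091 after GC correction and 1832 of 16144 with GC correction and without EV_Ctrl 2. DESeq2's test called 71 and limma-voom 1. Leaving out 1 library gave 0 to 2324 calls, above 0 only without EV_Ctrl 2. Library size alone as scaling gave a median log2 fold change of -0.104 over all genes, against -0.0115 with TMM. Deviations of same-numbered libraries from their group means correlated at 0.233, -0.136 and -0.152 for replicates 1 to 3. Such values cannot show whether these libraries were prepared together, since EV_Ctrl 2 stood apart and each mean rests on 3 libraries. A replicate block gave 0 calls and changed no direction among the 7 genes.

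Leaving out 1 library in turn, the log2 fold change ran from 0.66 to 1.18 for HSP90B1, 0.48 to 1.39 for HSP90AA1, -0.073 to 0.0052 for HSP90AB1, -0.013 to 0.050 for TRAP1, -0.18 to -0.017 for CNPY2, -0.070 to 0.10 for CNPY3 and -0.34 to -0.19 for CNPY4; that of HSP90B1 over HSP90AA1 reads ran from -0.20 to 0.11. With GC correction and without EV_Ctrl 2 it was 0.87 for HSP90B1, 1.39 for HSP90AA1, 0.099 for HSP90AB1 and 0.089 for CNPY2. After GC correction, alone and with the replicate block, it was 0.048 and 0.050 for HSP90AB1 and 0.075 and 0.072 for CNPY2. Against EV_Ctrl 2 alone it was -0.015 for HSP90AA1 and 0.019 for CNPY2. With library size only it was -0.089 for TRAP1 and -0.073 for CNPY3, and with at least 1 CPM in every library -0.0073 for TRAP1. None of these turned values passed the test.

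After GC correction the log2 read ratio difference of HSP90AB1 over TRAP1 was -0.14, and those of HSP90B1 were -0.24 over HSP90AA1, 0.62 over HSP90AB1, 0.47 over TRAP1, 0.59 over CNPY2, 0.43 over CNPY3 and 0.81 over CNPY4. The share differences were then 4.62 percentage points for the ER and -4.14 for the cytosol, and that of the mitochondrion was -1.83 per longest transcript. Calls in the lists ran, leaving out 1 library, from 0 to 5 for co-chaperones, 6 for ER chaperones, 2 for mitochondrial genes, 6 for Hsp70 partners, 4 for clients and 3 for sensors and factors. These calls were above 0 only without EV_Ctrl 2, where 2324 of 16259 genes were called. With GC correction and without EV_Ctrl 2 they were 4, 9, 3, 3, 2 and 3 in that order of lists, against 1832 of 16144 genes. ER chaperones had 2 calls with no filter (51 of 30486 genes), 3 with DESeq2's test (0.438% of genes) and 1 after GC correction (22 of 16091 genes). Sensors and factors had 2 with DESeq2's test. The cause of these shifts was not tested. CNPY2 and CNPY4, with 139 to 599 reads a library, were limited most by depth.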
